A study of Mus musculus with 4 samples.

Results

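The cytosolic ribosomal protein genes encode the protein parts of the ribosome outside mitochondria. They were taken by symbol (Rpl or Rps followed by a number, together with Rpsa, Rplp0, Rplp1 and Rplp2, without the S6 kinase genes and without genes named as pseudogenes), which gave 83 of the 31053 genes in the deposited tables. By symbol, 32 belong to the small subunit and 51 to the large subunit. Mouse bone marrow was profiled by droplet single-cell RNA sequencing in 4 libraries, 1 per group, so no comparison between groups has a replicate and no p-value is given. KLS cells are lineage-negative, c-Kit+ and Sca-1+ blood stem and progenitor cells, sorted from 4 mice of 8 to 12 weeks; the labels do not make clear whether 4 is the number per genotype or in all. The stromal sort, labelled MSC, took CD45-, Ter119- or low, CD71-, Sca-1+ and CD140a+ cells from mice of 6 to 8 weeks, whose number the labels do not state. The knockout (STAT5 KO) mice carried Vav1-Cre/+ with STAT5abfl/fl, and the control mice carried Vav1-Cre/+ with STAT5ab+/+, so the Cre transgene was present in every library. The Vav1 promoter drives Cre mainly in blood cells.

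A ribosome joins a small subunit, which reads the messenger RNA, with a large subunit, which forms the peptide bond. Each subunit is built in the nucleolus from ribosomal RNA and its own set of proteins by a separate group of biogenesis factors. Most ribosomal protein messenger RNAs begin with a C followed by a run of pyrimidines at the 5′ end, called the TOP motif, through which mTORC1 and the RNA-binding protein LARP1 set their translation. Blood formation is sensitive to ribosome dosage: loss of 1 copy of any of several ribosomal protein genes causes Diamond-Blackfan anemia, in which free RPL5 and RPL11 bind MDM2 and p53 is activated.

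The start sites of the members the results turn on are shown first. They let pyrimidine runs near the annotated start be compared between paralogues and between the members that differed most between libraries. RefSeq windows (GRCm38.p6) were found for 63 of the 83 members. Each line holds 30 bases, 15 before and 15 from the annotated start on, 5′ to 3′ on the gene's strand, with the longest run of a C followed by 4 or more C or T in capitals.
Rps27 (chr3:90213634-90213663, minus strand): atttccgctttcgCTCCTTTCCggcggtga
Rps27l (chr9:66946071-66946100, plus strand): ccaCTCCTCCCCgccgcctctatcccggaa
Rpl22l1 (chr3:28805493-28805522, plus strand): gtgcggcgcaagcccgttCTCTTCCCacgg
Rpl39 (chrX:37085208-37085237, minus strand): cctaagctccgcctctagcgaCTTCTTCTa
Rpl39l (chr16:10170213-10170242, plus strand): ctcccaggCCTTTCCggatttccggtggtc
Rpl13a (chr7:45128731-45128760, minus strand): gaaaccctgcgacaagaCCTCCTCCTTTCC
Rps28 (chr17:33824548-33824577, minus strand): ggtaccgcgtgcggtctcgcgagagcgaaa
Rps6 (chr4:86857353-86857382, minus strand): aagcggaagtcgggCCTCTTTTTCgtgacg

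Such a run lay in 44 of the 75 windows of members (58.7%) and in 36.4% of all 32851 windows of the same length. It was counted anywhere in the window, so it need not lie at the start of the RNA. In the windows of Rps27l and Rpl39l shown, the run lies wholly before the annotated start. The run is at least 13 bases long in Rpl13a, where it reaches the end of the window, and 10 in Rps6. The window of Rps28 holds none. The absence is not particular to Rps28: the window of Rpl41, not shown above, holds none either. Rpl22, also not shown, has an annotated start without a run and another with a run of 5 bases. A further annotated start of Rps27l has none. The letters CCGGAAG, a core bound by ETS factors, lay on either strand in 36.0% of the members' 300-base windows and in 8.86% of all windows. Its reverse complement begins with pyrimidines and can overlap the run. Annotated starts can be off by several bases, and a match or its absence describes only these letters.

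Total UMIs per library differed between the sorts by more than an order of magnitude, UMIs per cell by less, and many barcodes appeared in more than 1 library. UMIs are unique molecular identifiers, or counted RNA molecules. After filtering, KLS control kept 3085 cells with 51139373 UMIs, and KLS STAT5 KO kept 6726 cells with 76389354 UMIs. MSC control kept 577 cells with 1752793 UMIs, and MSC STAT5 KO 374 cells with 1199251 UMIs. Median UMIs per cell were 15136 and 10085 in the KLS libraries and 2732 and 2496 in the MSC libraries, control first. Barcodes shared with another library made up 10.5% and 3.93% of the KLS control and KLS STAT5 KO barcodes, and 34.1% and 47.1% of the MSC control and MSC STAT5 KO barcodes. A barcode was left out of a library when another library held more UMIs for it. Stat5a was at 68.5 counts per 1000000 UMIs (CPM) in KLS control and 6.74 CPM in KLS STAT5 KO, against 39.9 and 55.0 CPM in MSC control and MSC STAT5 KO, and Stat5b at 60.8, 4.49, 50.2 and 46.7 CPM. Kit was at 210.1 and 177.7 CPM in the KLS libraries, where Pdgfra, which encodes CD140a, had 0 UMIs. In the MSC libraries Pdgfra was at 287.0 and 236.0 CPM, and Ptprc, which encodes CD45, at 3.99 and 5.84 CPM.

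Ribosomal protein RNA was a larger part of the RNA of KLS cells than of stromal cells. Summed over the 83 members, KLS control held 274164 CPM (27.4% of UMIs) and KLS STAT5 KO 271145 CPM (27.1%). MSC control held 74740 CPM (7.47%) and MSC STAT5 KO 84672 CPM (8.47%). The small subunit genes held 44.7% and 44.3% of the ribosomal protein UMIs in the KLS libraries, and 42.5% and 42.6% in the MSC libraries. Over single KLS cells the share had a median of 27.9% in control, with the middle 50% of cells between 26.0% and 29.8%, and of 27.3% in STAT5 KO, between 25.5% and 29.5%. The per-cell ranges of the KLS libraries overlapped almost throughout. Over single MSC cells the medians were 5.89% and 6.29%, and 21.7% of MSC control cells and 25.7% of MSC STAT5 KO cells had a share under 1%. No KLS cell was under 1%.

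The genes themselves spanned a wide range of levels. UMIs are counted from the 3′ end of each RNA, so CPM is not divided by transcript length here. Ribosomal protein genes have many processed pseudogenes, and reads that match several copies may be left uncounted, so the order of levels between genes is uncertain. In KLS control the most abundant members included Rps24 at 7732 CPM and Rpl39 at 7705 CPM, and also Rpsa (5940 CPM), Rpl23 (5932 CPM), Rps29 (5711 CPM), Rpl32 (5683 CPM), Rpl13 (5582 CPM), Rps3a1 (5519 CPM) and Rpl41 (5455 CPM). RPSA is the protein also known as the laminin receptor, and RPL39 and RPL41 are among the smallest proteins of the large subunit. Spearman's rho over the 83 members was 0.984 between the KLS libraries, 0.987 between the MSC libraries and 0.838 to 0.864 between libraries of different sorts.

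**Figure D1:**
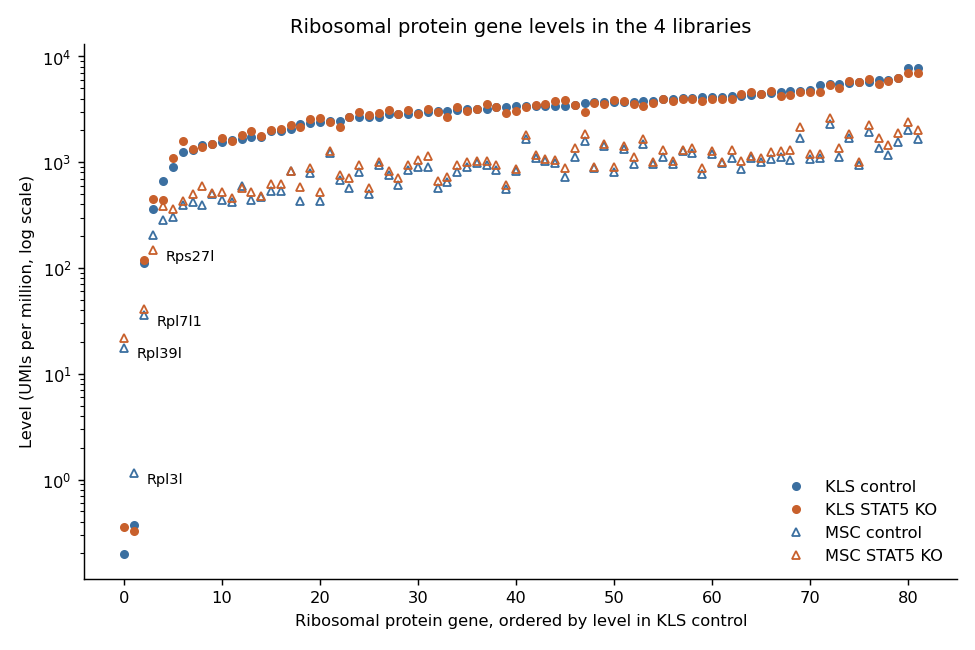
Level of each ribosomal protein gene with a UMI in KLS control (x axis, ordered by that level) in CPM on a log axis; filled circles are KLS libraries, open triangles MSC libraries, blue control and orange STAT5 KO, and values of 0 are not drawn. KLS points lie above the MSC points for nearly all genes, and Rpl39l is the reverse, at 0.20 and 0.35 in KLS and 17.7 and 21.7 in MSC; Rpl3l rests on at most 25 UMIs in any library.

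Most of the paralogues of ribosomal proteins described here stood at the low end, but Rpl22l1 did not. RPL39L, RPL3L and RPL10L are copies of RPL39, RPL3 and RPL10 known from testis or muscle. Rpl10l had 0 UMIs in every library, which allows a level of up to 0.0587 and 0.0393 CPM in the KLS libraries and of 1.71 and 2.50 CPM in the MSC libraries, control first. Rpl3l had 19 and 25 UMIs in the KLS libraries and 2 and 0 in the MSC libraries. Rpl39l had 10 and 27 UMIs in the KLS libraries, or 0.20 and 0.35 CPM, and 31 and 26 UMIs in the much smaller MSC libraries, or 17.7 and 21.7 CPM. Its partner Rpl39 ran the other way, at 7705 and 6982 CPM in KLS and 2003 and 2404 CPM in MSC. Rpl7l1, a nucleolar relative of RPL7, was at 112.1, 118.1, 35.9 and 40.9 CPM in the same order. Rpl22l1, a paralogue of RPL22, was at 1448, 1399, 392.5 and 594.5 CPM, and Rpl22 at 1960, 2080, 538.0 and 627.9 CPM. Rps27l, a p53-responsive paralogue of RPS27, was at 364.6, 450.9, 203.1 and 147.6 CPM, well under Rps27 at 3396, 3294, 1644 and 1809 CPM.

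The KLS cells were split into gates by fixed marker genes. The HSC-like gate needs a UMI of each of Hlf, Mecom and Procr; Dntt marks lymphoid-primed cells, Pf4 megakaryocyte-primed cells, Klf1 with Gata1 erythroid-primed cells, and Mpo with Elane, Prtn3 and Ctsg myeloid cells. Cells with none of these are called multipotent. The gates depend on depth, since a deeper cell is more likely to show a marker. The ribosomal protein share was 27.2% in 367 HSC-like cells of KLS control and 27.9% in 293 HSC-like cells of KLS STAT5 KO. It was 27.3% and 26.9% in the multipotent gate (1317 and 3128 cells) and 27.9% and 27.4% in the lymphoid-primed gate (1014 and 2470 cells). The megakaryocyte-primed gate had the lowest share in both libraries, at 26.1% and 25.9% (119 and 235 cells). Erythroid-primed cells were at 27.5% and 27.6% (41 and 116 cells) and myeloid cells at 26.9% and 26.7% (41 and 270 cells). These pooled shares lay closer together than the single cells of 1 gate did: the middle 50% of multipotent control cells ran from 25.9% to 29.7%. With the gates set on cells thinned to 4000 UMIs the megakaryocyte-primed gate was still lowest, at 26.8% in control, next to 27.1% in myeloid cells, and at 25.8% in STAT5 KO. The HSC-like and multipotent gates cannot be ordered: the difference was -0.15 percentage points in KLS control and 0.30 after thinning, and 0.94 in KLS STAT5 KO and -0.18 with at least 2 of the 3 stem genes.

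**Figure D2:**
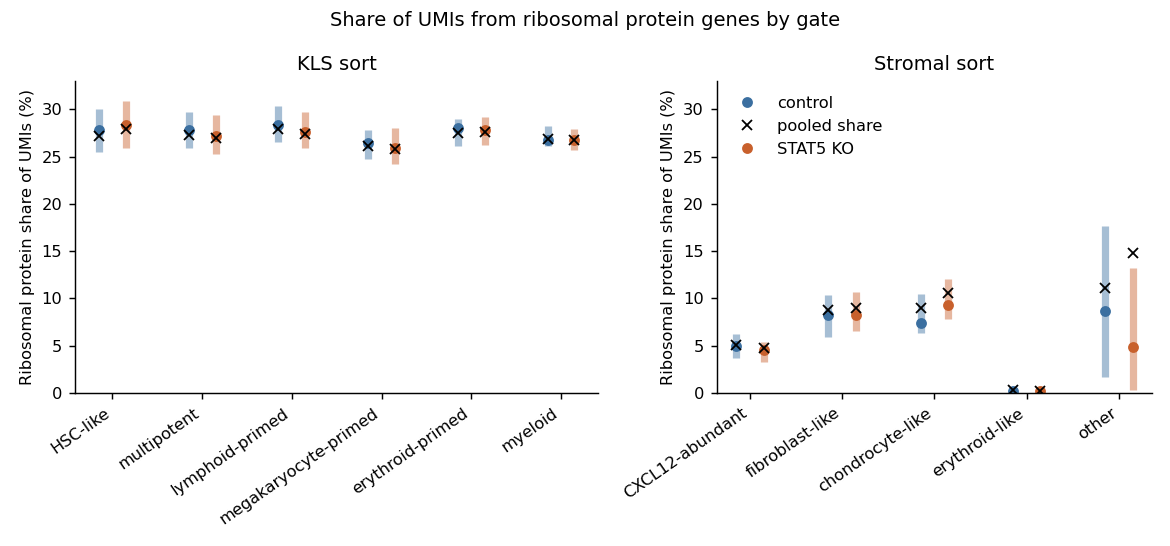
Ribosomal protein share of UMIs (%) by gate in the KLS sort (left) and the stromal sort (right), blue control and orange STAT5 KO; circles are medians over cells, bars the middle 50% of cells, and crosses the share of pooled UMIs. The KLS gates all lie near 26% to 28%, while the stromal gates run from 0.19% in erythroid-like cells to 14.8% in the other cells.

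Cell cycle state and depth went with the share more than the gates did. Cells were called cycling when at least 3 of 8 proliferation genes had a UMI, a call that also rises with depth. The share was 26.4% in cycling and 29.6% in other KLS control cells, and 26.3% and 29.7% in KLS STAT5 KO. Cells with 5000 to 10000 UMIs had a share of 29.6% in KLS control and 28.9% in KLS STAT5 KO, and cells with 20000 UMIs or more 26.7% and 26.4%. The shallowest cells, under 5000 UMIs, did not extend this order: their share was 24.0% in KLS control (41 cells) and 27.5% in KLS STAT5 KO (905 cells), each below the next bin. Cycling cells made up 50.3% of KLS control and 62.9% of KLS STAT5 KO cells. Depth and cycling cannot be told apart here.

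Within the ribosomal protein UMIs, Rps27l differed between the gates in the same order at both ends in the 2 libraries. Its level in KLS control was 300.4 CPM in HSC-like, 359.2 in multipotent, 363.6 in lymphoid-primed, 411.1 in megakaryocyte-primed, 519.2 in myeloid and 682.5 CPM in erythroid-primed cells. In KLS STAT5 KO the same gates were at 351.8, 429.4, 444.6, 434.4, 619.5 and 671.5 CPM. HSC-like cells were lowest and erythroid-primed cells highest in both libraries. As a share of ribosomal protein UMIs against the other gates, the log2 ratio of Rps27l in erythroid-primed cells was 0.92 (95% interval 0.82 to 1.02) in control and 0.57 (0.50 to 0.64) in STAT5 KO. In HSC-like cells it was -0.31 (-0.39 to -0.24) and -0.42 (-0.50 to -0.33). Intervals here and below cover counting error only. In erythroid-primed cells Rpl13a (0.46 and 0.38), Rps2 (0.48 and 0.33) and Rpl14 (0.42 and 0.31) were also higher in both libraries, and Rps24 (-0.38 and -0.28) and Rpl39 (-0.35 and -0.32) were lower. Rps2 and Rpl14 were named here after their values were seen.

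**Figure D3:**
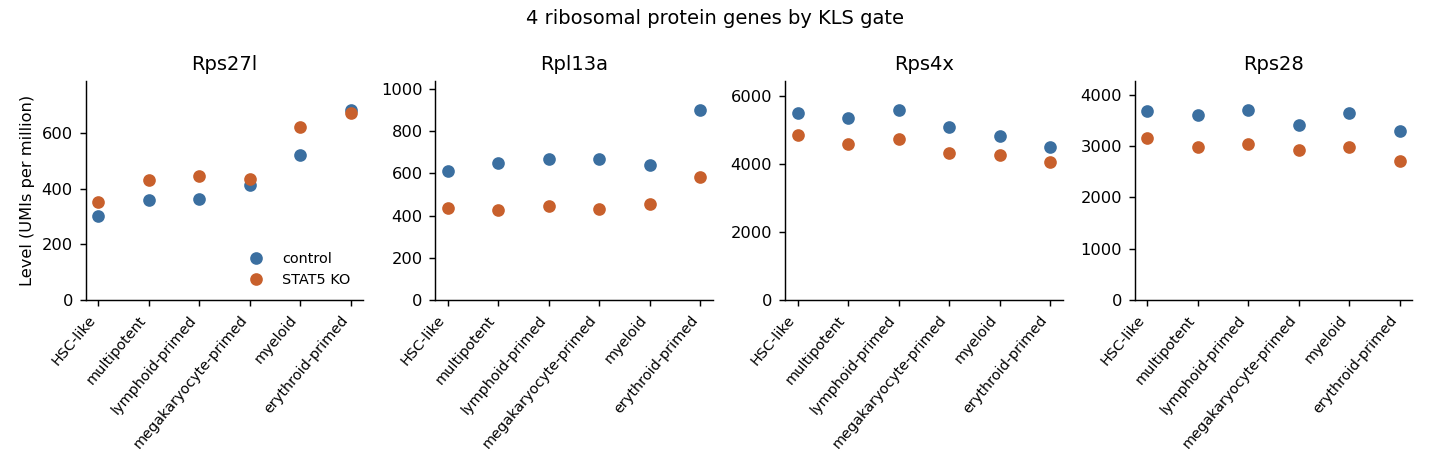
Level (CPM, axes from 0) of Rps27l, Rpl13a, Rps4x and Rps28 in the 6 KLS gates, 1 point per gate and library, blue control and orange STAT5 KO. Rps27l is lowest in HSC-like and highest in erythroid-primed cells in both libraries, and Rpl13a, Rps4x and Rps28 are lower in STAT5 KO in every gate.

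STAT5 is a transcription factor downstream of cytokine receptors such as those for thrombopoietin and erythropoietin, and the KLS libraries ask what its loss in blood cells does to progenitors. The ribosomal protein share differed little between them: STAT5 KO minus control was -0.30 percentage points (-0.318 to -0.286). Mitochondrial UMIs made up 4.38% of KLS control and 2.94% of KLS STAT5 KO. With cycling and other cells weighted as in control, a choice made after seeing the data, the difference was -0.042, and without mitochondrial genes, Malat1, Gm42418 and AY036118 it was -0.78. With 1 library per genotype this range cannot be told apart from differences between preparations.

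Member by member, the KLS libraries were close. Of 80 members with at least 100 UMIs over both libraries, 2 were higher and 2 lower by 1.2-fold or more (pseudocount of 1 CPM) in STAT5 KO, while 9.76% of all 12074 genes tested were higher, 14.2% lower and 24% one or the other. Among genes at 100 CPM or more, 19.7% passed in either direction. The members' median log2 ratio was -0.01, as was that of all genes tested. Genes at 100 CPM or more had a higher median, 0.07. Of those, 1013 of 1581 were above 0, against 36 of the 80 members.

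Among the members with the highest ratios, Rps27l (9:66946086-66949516 in GENCODE M21, GRCm38) had a log2 ratio of 0.31 (0.28 to 0.33) and was higher in 5 of 6 gates; erythroid-primed cells were at -0.02. Rpl31 was at 0.26, with 905.5 CPM in control and 1085 CPM in the knockout, followed by Rpl4 (0.19), Rps18 (0.17), Rplp2 (0.16), Rpl36 (0.15) and Rpl24 (0.14).

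Rpl13a and Rps28 were the members lower past 1.2-fold. Rpl13a (7:45125558-45128761), a large subunit protein that also takes part in silencing of inflammatory transcripts, measured 658.1 CPM in control against 441.4 CPM in the knockout, a log2 ratio of -0.58 (-0.60 to -0.55), and was lower in each gate by -0.63 to -0.48. Rps28 (17:33819027-33824562), a small subunit protein near the exit channel of the messenger RNA, was at 3623 and 2998 CPM, a ratio of -0.27, and also lower in each gate. Rps4x, encoded on the X chromosome, was at 5408 and 4611 CPM (-0.23) and lower in each gate, with Rpl3, Rpl7 and Rpl17 at -0.19 each and Rps9 at -0.15. The gates come from the same pair of libraries and are not replicates of each other. Outside the symbol rule, Fau, whose product includes a small subunit protein, was at 0.05, and Rack1, a scaffold on the small subunit, at 0.04.

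The special groups of members gave no common direction in KLS. The 13 Diamond-Blackfan genes had a median of 0.02, with Rps28 lower past 1.2-fold; Rps19, the gene most often mutated in patients, was at 4504 and 4762 CPM (0.08). The 5S particle proteins that bind MDM2 were at 1616 and 1588 CPM for Rpl5 (-0.03) and at 3122 and 3352 CPM for Rpl11 (0.10). In the P-stalk, which recruits elongation factors, Rplp0 was at -0.07, Rplp1 at -0.05 and Rplp2 at 0.16. The 5 members within 25 Mb of Stat5a on chromosome 11 were Rpl27, 0.58 Mb away (0.01), Rpl19 (0.04), Rpl23 (-0.11), Rpl38 (-0.0030) and Rpl23a (0.02), none past 1.2-fold.

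Genes that build ribosomes differed more than the ribosomal proteins did. Of 36 ribosome biogenesis genes, all of them tested, 18 were higher past 1.2-fold in KLS STAT5 KO and 0 lower, against the 9.76% of all genes tested that were higher; among genes at 100 CPM or more the share was 15.2%. Their median log2 ratio was 0.26, and all 36 were above 0. Nolc1, a nucleolar chaperone of small nucleolar particles, was at 104.9 and 163.1 CPM (0.63), and Bop1, a large subunit processing factor, at 35.6 and 51.6 CPM (0.52). Nob1 and Sbds, which act late in subunit maturation, were each at 0.02. In cycling cells alone 18 of 36 were higher, against 9.17% of genes tested, and in the other cells 22 of 36, against 13.8%. By gate, the list's median was 0.19 in HSC-like, 0.23 in multipotent, 0.28 in lymphoid-primed and 0.29 in myeloid cells, and 0.10 in megakaryocyte-primed and 0.07 in erythroid-primed cells. The medians of all genes tested in those gates lay between 0.01 and 0.08. RNA quality and stress genes also differed between these libraries: the ribosomal RNA-derived Gm42418 was at 491.4 CPM in control against 1044 CPM in the knockout and AY036118 at 13.5 and 35.4 CPM, and the heat shock genes Hspa1a at 6.36 and 21.7 CPM and Hspa1b at 6.88 and 25.9 CPM. Their part in the KLS ratios was not tested.

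The other translation lists did not share 1 direction. They are read against the same background, 9.76% of all genes tested higher and 14.2% lower, or 15.2% and 4.49% among genes at 100 CPM or more. Of 18 initiation factors 5 were higher and 0 lower, with a median of 0.18. Eif4g1, the scaffold of the cap-binding complex, was at 159.6 and 223.8 CPM (0.48), and Eif5a at 997.6 and 1296 CPM (0.38), while Eif4a2 was at -0.07. Of 14 elongation factors and other TOP genes 0 were higher and 1 was lower, with a median of -0.10; Eef1a1 was at 11016 and 9345 CPM (-0.24), Eif3e at 423.8 and 350 CPM (-0.27) and Eef1g at 845.7 and 1005 CPM (0.25). Of 78 mitochondrial ribosomal proteins 13 were higher and 1 was lower, with a median of 0.13; that share higher is near the 15.2% of genes at 100 CPM or more. Among 16 regulators of Myc and mTORC1, Larp1 (0.43) and Rptor (0.29) were higher and Mycn (-0.35) was lower. Of 12 p53 response genes 4 were higher and 0 lower, among them Cdkn1a, the cell cycle inhibitor p21, at 30.6 and 44.8 CPM (0.54).

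**Figure D4:**
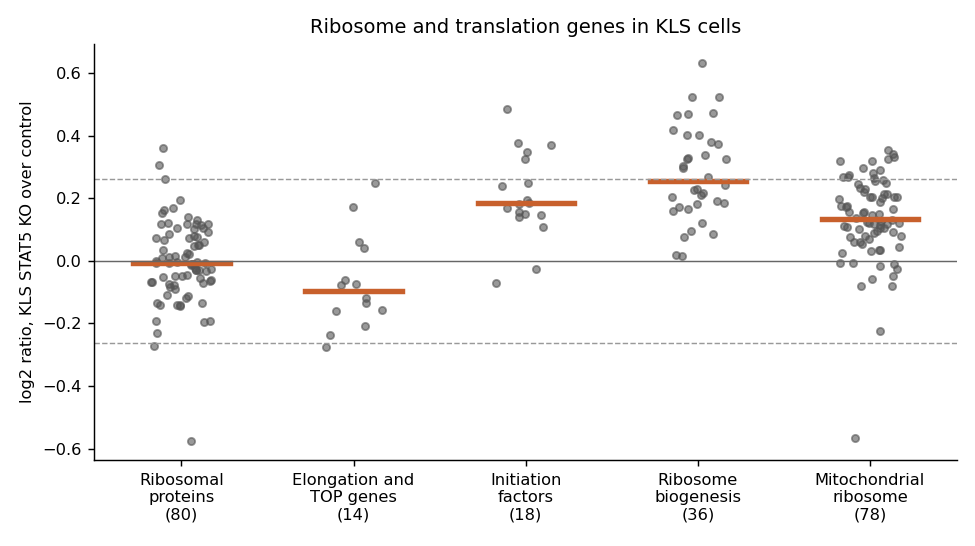
Log2 ratio of CPM (pseudocount of 1), KLS STAT5 KO over KLS control, for genes of 5 lists with at least 100 UMIs over both libraries; each point is a gene, orange bars are list medians, dashed lines mark 1.2-fold, and numbers in brackets are genes. The ribosomal proteins centre on -0.01, and all 36 ribosome biogenesis genes lie above 0.

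The stromal sort compares marrow stroma between the same genotypes. Stat5a (39.9 and 55.0 CPM) and Stat5b (50.2 and 46.7 CPM, control first) did not show there the fall seen in KLS cells. The share was higher in STAT5 KO by 0.99 percentage points (0.93 to 1.06), but the cells sampled differed. CXCL12-abundant cells, which carry Cxcl12 at 1% of UMIs or more, had a share of 5.03% in control (101 cells) and 4.73% in STAT5 KO (52 cells). Fibroblast-like cells were at 8.82% and 8.95% (303 and 181 cells). Chondrocyte-like cells, with collagen II, collagen IX and aggrecan genes, were at 9.01% and 10.5%, and their 13 and 31 cells held 5.40% and 26.6% of all UMIs. Erythroid-like cells were at 0.31% and 0.19% (116 and 87 cells), and the remaining 44 and 23 cells at 11.1% and 14.8%. The remaining cells of STAT5 KO held the myeloid gene Mpo at 5618 CPM, and those of control had 0 UMIs of it. With the gates weighted as in control the difference was 0.24 points, with depth bins weighted 0.31, and in the 3 stromal gates together 0.83 (7.86% and 8.69%). As a mean over cells it was -0.067, so no direction is given for the stromal share.

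Hemoglobin and other erythroid marker RNA was also uneven between the stromal libraries. The list of 6 genes summed to 31501 CPM in MSC control and 14744 CPM in MSC STAT5 KO, with no gene at 0, and to 41.1 and 69.4 CPM in the KLS libraries. The 5 neutrophil markers summed to 1235 and 430.3 CPM, with Ngp and Ltf at 0 in MSC STAT5 KO. Their part in the member values was not tested.

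Of the 80 members tested in the whole stromal sort, 15 were higher and 1 lower past 1.2-fold in STAT5 KO, against 16.3% higher, 26.9% lower and 43.1% one or the other of all genes tested. Their median was 0.17 and that of all genes -0.06. In the stromal gates alone 8 were higher and 1 lower, against 14.4%, 31.5% and 45.9% in either direction, with medians of 0.14 and -0.10, and with the gates weighted as in control 2 passed in either direction. With edgeR's TMM scaling 35 members passed in the whole sort, where the median of all genes was -0.0030 and that of members 0.23. In CPM, the share of members that was higher lay near that of all genes.

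Rpl22l1 had the highest ratio in the stromal sort, at 0.60 (0.45 to 0.75). By gate it was at 398.8 and 497.9 CPM in CXCL12-abundant, 403.0 and 419.0 in fibroblast-like, and 760.9 and 1091 CPM in chondrocyte-like cells of control and STAT5 KO. Chondrocyte-like cells had the highest level in both libraries, and they gave more of the UMIs in STAT5 KO. Rpl13a (284.1 and 386.9 CPM, 0.45), Rpl36a (434.7 and 587.9 CPM, 0.44), Rplp1 (1693 and 2142 CPM, 0.34), Rps14 (899.7 and 1140 CPM, 0.34), Rpl23 (1355 and 1706 CPM, 0.33) and Rpsa (1158 and 1443 CPM, 0.32) followed.

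Opposite signs in KLS and stroma were common among the members. Of 80 members tested in both, 24 had intervals on opposite sides of 0 in KLS and in the stromal gates, against 9.39% of all 3706 genes tested in both and 17.3% of those at 100 CPM or more, and 23 of the 24 were lower in KLS and higher in stroma. Abundant genes have narrow intervals, so small ratios count here. Most members also shared 1 direction in stroma: 74 of 80 were above 0 in the stromal gates, against 36 of 80 in KLS. The 24 are therefore not separate results. Rps28 was at -0.27 in KLS and 0.21 in stroma, Rpl36a at -0.09 and 0.40, and Rpl22l1 at -0.05 and 0.57. The stromal values pool gates whose proportions differed between the libraries. In CXCL12-abundant, fibroblast-like and chondrocyte-like cells Rpl36a was at 0.13, 0.17 and 0.31, and each interval spanned 0. Rpl22l1 was at 0.32, 0.06 and 0.52 in that order, with an interval clear of 0 in chondrocyte-like cells alone. Rpl13a and Rps27l are described further because each was past 1.2-fold in both sorts. In the stromal gates Rpl13a was at 295 CPM in MSC control against 399.7 CPM in MSC STAT5 KO, a ratio of 0.44. Rps27l was at 222.4 and 147.1 CPM, a ratio of -0.60. Rps27l was lower in CXCL12-abundant cells (200.7 and 96.4 CPM), in fibroblast-like cells (238.0 and 180.8 CPM) and, within counting error, in chondrocyte-like cells (137.4 and 116.0 CPM). Rpl13a was at 323.3 and 401.6 CPM in fibroblast-like cells, and its intervals spanned 0 in CXCL12-abundant and chondrocyte-like cells. Of the 7 p53 response genes tested in the whole stromal sort, 0 were higher and 3 were lower (Bax, Phlda3 and Ei24), against 26.9% of all genes tested that were lower.

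**Figure D5:**
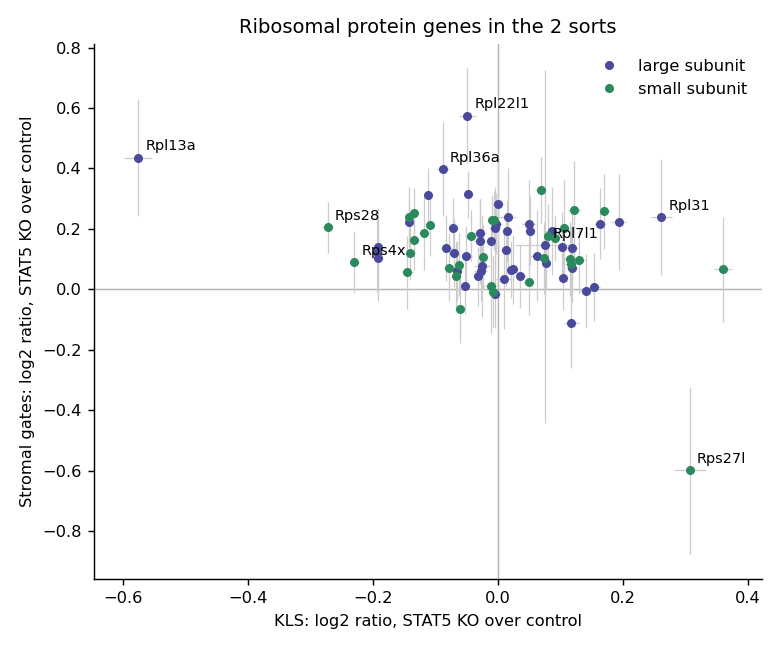
Log2 ratio of STAT5 KO over control for each ribosomal protein gene in KLS cells (x axis) and in the stromal gates (y axis), with 95% intervals for counting error; blue points are large subunit and green points small subunit genes. Most genes lie within 0.2 of 0 on the x axis, Rpl13a lies at -0.58 and 0.44, and Rps27l at 0.31 and -0.60.

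Between the sorts, ribosomal protein RNA was higher in KLS cells almost throughout. In the control pair 80 of 82 members with a UMI in both were higher in KLS than in the stromal gates, against 49.5% of all 13717 such genes, with a median log2 ratio of 1.80 against -0.02. In the STAT5 KO pair 80 of 81 were higher, against 49.9%, with a median of 1.68 against -0.01. Rpl39l was lower in KLS in both pairs, and Rpl3l in the control pair, on 19 UMIs in KLS and 1 in stroma. Sort, age, tissue digestion and depth differ together here and cannot be told apart.

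The members did not keep their proportions between the sorts. As a share of ribosomal protein UMIs, Rpl32 was 2.07% in KLS control and 1.23% in the stromal gates of control (log2 0.75, 0.68 to 0.83), and 2.13% and 1.16% in STAT5 KO (0.87). Rps6, whose protein is the classic target of S6 kinase, was 0.87% and 0.57% in control (0.61) and 0.96% and 0.62% in STAT5 KO (0.63). In the other direction, Rpl10 was 0.90% in KLS and 1.67% in stroma of control (-0.90, -0.96 to -0.83) and 0.89% and 1.58% in STAT5 KO (-0.82). Rps27 was 1.24% and 2.13% in control (-0.78) and 1.22% and 2.17% in STAT5 KO (-0.84). Rpl41, Rps28 and Rpl13a were also lower in KLS in both pairs, at -0.62, -0.66 and -0.65 in control and -0.63, -0.98 and -1.50 in STAT5 KO.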

How the data were processed

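Raw UMI counts per gene and cell were deposited by the authors, from 10x version 3 libraries processed with Cell Ranger on GRCm38 (mm10), per the submitters' processing notes; per the file headers that software was version 3.1.0. How reads matching several genes were treated is not given in the sources used here. Barcodes under 200 genes or over 10% mitochondrial UMIs were dropped. The highest Scrublet scores (scanpy 1.11.5; 0.8% of barcodes per 1000 barcodes) were left out, since the automatic threshold marked 0, 1, 0 and 1 barcodes. A barcode with more UMIs in another library was left out, which removed 369, 261, 32 and 10 further barcodes in KLS control, KLS STAT5 KO, MSC control and MSC STAT5 KO. No free RNA correction was made.

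Counts were summed per library or gate and expressed as CPM of all gene UMIs. Shares carry Clopper-Pearson, levels Poisson and ratios exact conditional binomial 95% intervals, all for counting error only. Limits for 0 UMIs use 3 counts. The fold of 1.2, on log2 CPM with a pseudocount of 1, was read over genes with 100 UMIs or more summed over a pair. No test was made, as each group has 1 library. Ratios were checked on simulated data.

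Genes were named by rule: the 10 most abundant members, the 8 highest and 8 lowest ratios in each sort, the paralogue, P-stalk, 5S, Diamond-Blackfan and chromosome 11 groups, and the 2 highest and 2 lowest of other lists. Members, lists and gates were chosen with earlier results of these data known. Exceptions to the naming rule are Rps2 and Rpl14, named after their values were seen, and genes named for sort proportions. Alternatives used edgeR 4.0.16 factors, other filters, folds, weights and scalings. Some genes that met the rule are not reported here.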

Additional observations from a re-analysis of the deposited data

Results flagged for a closer look

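Opposite signs in the KLS and stromal comparisons drew attention to 3 values, the share and the members past 1.2-fold in both, out of 24 members with intervals on opposite sides of 0; each rests on 1 library per group, and the difference between the sorts was not tested. The ribosomal protein share of UMIs was 0.99 percentage points higher in MSC STAT5 KO than in MSC control, while KLS STAT5 KO was 0.30 points below KLS control (-0.30). Rpl13a had a log2 ratio of 0.44 in the stromal gates and -0.58 in KLS cells. Rps27l had a ratio of -0.60 in the stromal gates and 0.31 in KLS cells. The share as a mean over stromal cells had the opposite sign, at -0.067.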

How the results depend on the processing

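The lower ribosomal protein share in KLS STAT5 KO (-0.30 points) kept its sign in all 10 alternatives: -0.25 with shared barcodes kept, -0.070 with minima of 500 genes and a maximum of 5% mitochondrial UMIs, -0.15 with no cell filter, -0.39 as a mean over cells, -0.78 without mitochondrial genes, Malat1, Gm42418 and AY036118, -0.28 with gates weighted, -0.63 with depth bins weighted, -0.32 with 3 associated genes added, and -0.042 with cycling weighted. The stromal share (0.99) was -0.067 as a mean over cells, 0.91 with shared barcodes kept, 1.08 with the stricter filter, 0.91 with no filter, 1.12 without those genes, 0.24 with gates weighted, 0.31 with depth bins weighted and 0.83 in the stromal gates. HSC-like minus multipotent in KLS control (-0.15) was 0.30 on thinned cells, 0.13 with shared barcodes kept, 0.047 as a mean over cells, -0.47 with at least 2 of 3 stem genes and -0.024 without those genes. In KLS STAT5 KO (0.94) it was -0.18 with at least 2 of 3 stem genes, 1.69 on thinned cells, 1.05 with shared barcodes kept, 1.30 as a mean over cells and 1.09 without those genes. The cause of these differences was not tested.

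The 4 members past 1.2-fold in KLS were 18 at 1.1-fold and 0 at 1.5-fold. The 16 in the stromal sort were 51 at 1.1-fold, 1 at 1.5-fold, 35 with edgeR TMM factors, 4 centred on the members' median, 2 with gates weighted and 9 in the stromal gates. The 18 ribosome biogenesis genes were 30 at 1.1-fold and 1 at 1.5-fold; other alternatives for these counts stayed within 1.5 times. No paired analysis was possible because each group has 1 library.

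Limits: 1 library per group gives no spread between mice, and intervals cover counting error only. In the MSC libraries 1.71 and 2.50 CPM are the levels that 0 UMIs allow. Shared barcodes, free RNA, sorting and depth differ between libraries.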
